A study of Mus musculus with 98 samples.

Results

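CapFb1b is one of 3 subtypes into which the study divided the CapFb1 fibroblasts of the mouse thymic capsule, the sheet of connective tissue around the thymus. Its members are the cells that carry this label in the study's own cell annotation, 3603 of 36208 cells of nonepithelial thymic stroma (NETS) at 5 ages and 1616 of 21451 cells in a second data set of newborn mice. All 3603 lay in 1 cluster of the study. CapFb1a with 2378 cells and CapFb1c with 1227 cells are the labels most like it and serve here as neighbours.

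The first data set was made from WT mice of the C57BL/6 strain, whose live Ter119-CD45-EpCAM- cells were sorted and captured with a 3′ kit that counts transcripts by unique molecular identifiers (UMIs). It held 1 library each at E12.5 and E13.5, pooled from 2 litters, and 2 libraries each at E16.5, P0 (the day of birth) and W4 (4 weeks). In the second, CD45- stroma of mice labelled Tbx1+/- Crkl+/- and of WT littermates was captured at P0 with 3 libraries per genotype. These mice carry 1 copy each of 2 genes of the segment lost in 22q11.2 deletion syndrome, Tbx1 in the form of a LacZ allele, and the loss is present in all cells rather than in fibroblasts alone. Bulk RNA-seq of sorted WT fibroblasts, gp38+CD26+ and gp38+CD26- at P0 and gp38+CD26- at 4 weeks with 6 samples each, gave a measurement made without the cell labels. The series also holds gp38+CD26+ samples at 4 weeks, which were not used here. Bulk titles carry the prefix TXCK or DFCK, whose meaning is not stated, and both occur in each group. The libraries of the age series at E16.5, P0 and W4 came from 2 thymi per age, and the newborn libraries from 3 mice per genotype. No label names the animal of a single library or bulk sample, so p-values measure the spread between libraries or samples. Titles of the 2 bulk gates at P0 run in the same order of prefix and number. Whether their samples were matched by animal is not stated.

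Fibroblasts of the capsule build and remodel collagenous matrix and secrete factors that act on the epithelium beneath. FGF10 is a fibroblast ligand for the epithelial receptor FGFR2b and is needed for growth of the thymic epithelium, while secreted frizzled-related proteins such as SFRP1 bind Wnt ligands outside the cell. In many fetal tissues a network of imprinted growth genes, among them Igf2, H19, Dlk1, Plagl1 and Mest, is active before birth and declines afterwards.

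Per library, CapFb1b held 45 to 823 cells with 577377 to 11001387 UMIs in the age series, and at most 411 cells with 401640 to 2492365 UMIs in the newborn data. The median cell had 10534 to 13812.5 UMIs in the first and 2450 to 5531 in the second, so values for newborn mice are less precise. Newborn libraries labelled Tbx1+/- Crkl+/- had medians of 2450, 2716 and 2456 UMIs, and those of WT 2573.5, 3922 and 5531. Depth thus tended to be lower in the former, and its part in the genotype differences was not tested. Cells of the newborn data were fixed in RNAprotect for storage before capture, whereas those of the age series were kept on ice. Levels of the data sets therefore also differ by this treatment. Of the CapFb1b cell barcodes, 33 in the age series and 8 in the newborn data also occurred in another library. Summed counts of the 2 E16.5 libraries differed little beyond counting noise (chi-square 1.40 per degree of freedom over 12103 genes), those of P0 and W4 more (6.77 and 3.58). The spread at E16.5 is therefore small, and the counts of changed genes against that age are given also without 1 or the other of its libraries. Levels below are CPM, the summed UMIs of a gene scaled to the total of the CapFb1b cells of a library, and are listed as E12.5, E13.5, then replicates 1 and 2 of E16.5, P0 and W4.

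Markers of other cell types differed in level in CapFb1b. Summed over 9 endothelial markers the level was 45.03 to 93.5 CPM, over 8 leukocyte markers 3.12 to 22.6 CPM and over 10 epithelial markers 5.72 to 43.5 CPM across the libraries of the age series. Thymocyte markers summed to 43.75 to 232.3 CPM, and mural markers stood higher, at 202.6 to 449.7 CPM over 8 genes in the age series and 568.1 to 844.5 CPM in the newborn data. Erythroid markers were uneven, at 4357 CPM at E13.5, 82.3 to 354 CPM at E16.5 and P0, and 235 and 8963 CPM in the W4 libraries. In the newborn data the epithelial sum was higher, 477 to 1350 CPM, in libraries that also held epithelial cells. 8 general fibroblast genes together reached 2719 CPM at E12.5 and 40140 to 41310 CPM at W4.

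The genes that name the subtype were shared with its neighbours. Itm2a, a membrane protein of differentiating mesenchyme, averaged 2176 ± 1716 CPM in CapFb1b (SD over 8 libraries that span the ages) and ranked 6th of 17 labels at E16.5, 4th of 18 at P0 and 3rd of 18 at W4. In CapFb1b it stood at 260, 622, 3864, 3815, 3906, 3506, 697 and 743 CPM, below CapFb1a in every library, where the E16.5 and P0 values were 5258, 5334, 4681 and 4777 CPM. At the same ages Sfrp1 (339 ± 263 CPM over the 8 libraries) ranked 6th, 7th and 2nd, Dpep1, a membrane dipeptidase (312 ± 478 CPM), 6th, 5th and 1st, and Fgf10 (106 ± 58.9 CPM) 5th, 3rd and 1st. The mean of Dpep1 was carried by the W4 libraries, with 1062 and 1106 CPM against at most 109 CPM at the other ages. In capillary endothelium (EnC), which should lack them, Itm2a was at 159 CPM and Sfrp1 at 15.6 CPM.

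Cdo1, which oxidises cysteine, Ptn, the heparin-binding growth factor pleiotrophin, and Pdgfra, the receptor that marks most fibroblasts, averaged 255 ± 243, 5682 ± 1874 and 332 ± 150.9 CPM in CapFb1b over 8 libraries. Averaged over the ages other labels came close, with 247 CPM in CapFb1a for Cdo1 and 321 CPM in CapFb1a for Pdgfra. For Ptn, MedFb1b had 5664 CPM (7 libraries, without E12.5). The SD spans the ages and so does not compare labels. Within E16.5, P0 and W4 CapFb1b ranked 1st at each age for Cdo1, and 1st, 1st and 2nd for both Ptn and Pdgfra. Dpp4, which encodes the CD26 used to gate capsular fibroblasts, was at 23.3 ± 13.51 CPM in CapFb1b, against 264 CPM in CapFb4. Since the labels were made from these same counts, the levels are a description without a test.

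**Figure D1:**
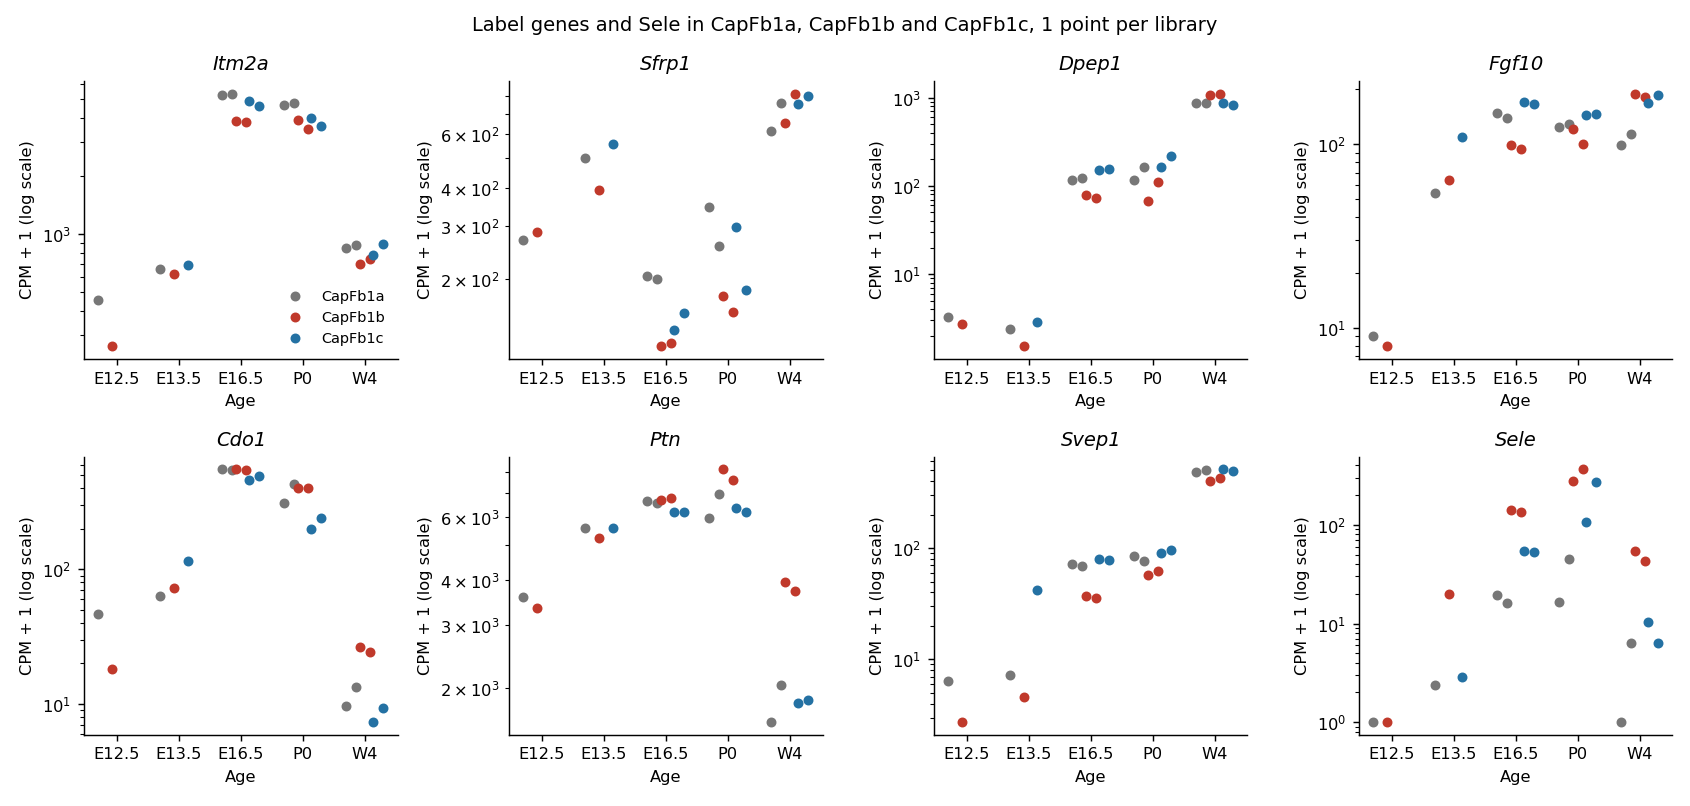
Levels (CPM + 1, log axis) of the 7 label genes and Sele in CapFb1a (grey), CapFb1b (red) and CapFb1c (blue) by age, 1 point per library. Within each E16.5 and P0 library Dpep1, Sfrp1 and Svep1 lie lower in CapFb1b than in both neighbours, Sele lies above both neighbours from E13.5 on, and CapFb1c had too few cells at E12.5 to be shown.

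Of the 3202 genes with at least 50 CPM in CapFb1b, 0 were more than 2-fold above both neighbours in every one of the 7 libraries compared. Among the 15 whose smallest margin over both neighbours was largest were Sele, Lsamp, Msx1, Nes, Ndufa4l2, Timeless, Fam13c, Des, Spry4, Ifitm1, Ets1, Tbx2, Pla1a and Tcf21. Sele, the adhesion receptor E-selectin known from activated endothelium, reached 0, 18.7, 140, 133, 276, 364, 53.9 and 42.5 CPM in CapFb1b. In CapFb1a it was 0, 1.37, 18.5, 14.96, 15.6, 43.8, 0 and 5.41 CPM, so all 7 libraries from E13.5 on lay higher in CapFb1b, and CapFb1c had 1.86, 53.0, 52.0, 105, 269, 9.47 and 5.39 CPM from E13.5 on. Endothelial Pecam1 was at 3.76 ± 1.75 CPM in the same cells, against 915 CPM in EnC. The study lists Sele among the top genes of the medullary fibroblast label MedFb1a, and Des among those of MedFb2a. The margins given here therefore hold only against CapFb1a and CapFb1c.

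Lsamp, a cell adhesion protein of the immunoglobulin family, was at 59.3, 88.7, 88.6, 130.1, 138, 360.4 and 350.5 CPM from E13.5 on, where CapFb1a had 39.7, 26.5, 16.9, 42.99, 56.5, 266.75 and 256.9 CPM and CapFb1c 33.5, 20.6, 17.6, 35.9, 48.7, 172.4 and 180 CPM. Among transcription factors, Tcf21, a regulator of mesenchymal progenitors, averaged 63.2 ± 14.5 CPM in CapFb1b (SD over 8 libraries) and ranked 1st of the labels at E16.5, P0 and W4. Its level varied little with age, from 48.6 to 88.5 CPM. Msx1 and Tbx2, a homeobox and a T-box factor of embryonic mesenchyme, were at 58.8 ± 23.8 and 97.8 ± 31.3 CPM. Des and Nes, intermediate filament genes also strong in pericytes, were at 112.4 ± 69.2 and 58.7 ± 29.7 CPM, while Rgs5, a defining gene of mural cells, was at 22.2 ± 11.4 CPM. Other mural genes were higher in CapFb1b, with Abcc9 at 107.87 ± 47.9 CPM and Kcnj8 at 81.2 ± 54.9 CPM, against 443.9 and 1001 CPM in the pericyte label Pc, where Rgs5 was at 3081 CPM.

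CapFb1b was scarce before E16.5, most frequent around birth, and less frequent at W4. It made up 2.25% of the NETS cells at E12.5 and 3.15% at E13.5 (Wilson 95% intervals 1.69 to 3.002% and 2.72 to 3.64%, covering counting error only). At E16.5 the libraries held 12.9 and 12.49%, at P0 13.4 and 14.3%, and at W4 5.85 and 6.67%. From P0 to W4 the share fell 2.21-fold (log2 difference -1.15 ± 0.13 SE, adjusted p = 0.00115 over 19 labels, edgeR's quasi-likelihood test with Benjamini-Hochberg adjustment), and both W4 libraries lay below both P0 libraries. The difference between E16.5 and P0 was 0.13 ± 0.13 on the log2 scale (adjusted p = 0.524). Its 95% interval by the normal approximation, which is too narrow for so few libraries, was -0.12 to 0.37. Counted among fibroblasts alone, the shares were 23.5 ± 0.37, 22.7 ± 1.04 and 11.2 ± 0.16% at E16.5, P0 and W4 (SD, n = 2 each). Shares of captured cells depend on the sort and on the numbers of the other cells, so they do not give numbers per thymus.

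**Figure D2:**
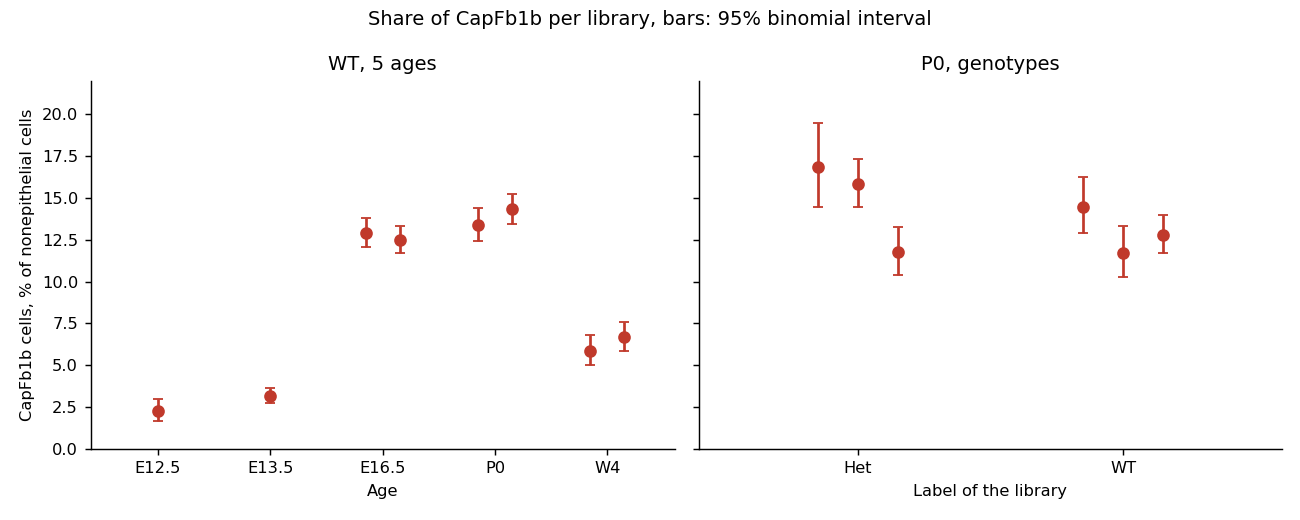
CapFb1b cells as a percentage of the nonepithelial cells of each library (points) with 95% Wilson intervals (bars), for the 5 ages of WT mice on the left and for the newborn libraries labelled Het (Tbx1+/- Crkl+/-) and WT on the right. Both E16.5 and both P0 libraries lie at 12.49 to 14.3%, the W4 libraries at 5.85 and 6.67%.

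Between E16.5 and P0, CapFb1b gained immediate early, complement and MHC class I transcripts and lost imprinted and cell cycle transcripts. The test was edgeR's quasi-likelihood test over all ages with at least 2 libraries, adjusted over 12631 genes, of which 28.3% were called in either direction, 14.3% higher and 14.1% lower at P0. Without 1 or the other E16.5 library the called genes dropped from 3576 to 1337 and 1332. List counts of the fit on all libraries are read against the shares given for it. Those shares do not apply to the fits without an E16.5 library, where fewer genes were called in each direction. Such fits leave 1 library at that age, so their list counts are not given. In them the immediate early, complement, antigen presentation, imprinted and cell cycle lists had as many or fewer calls in each direction. The same held for adipogenic and lipid genes, growth factors for epithelium and interferon-stimulated genes, and the thymocyte markers lost all their calls.

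Of 20 immediate early genes, which respond within minutes to growth factors and also to tissue dissociation, 14 were higher at P0 and 1 was lower (median log2 difference 0.64, all genes 0.01). Egr3 stood at 9.72 and 8.999 CPM at E16.5 and at 73.7 and 83.3 CPM at P0 (log2 difference 2.99 ± 0.11, adjusted p = 2.2e-08). Nr4a1, an orphan nuclear receptor, went from 39.8 and 44.9 to 272 and 238 CPM (2.502 ± 0.11, adjusted p = 6.1e-08). Fos, at 3112 and 3203 CPM at E16.5, differed between the P0 libraries with 6886 and 4558 CPM (0.77 ± 0.13, adjusted p = 0.0011). The exception was Klf6, which fell from 281 and 292 to 183.8 and 169 CPM (-0.78 ± 0.07, adjusted p = 1.6e-05).

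Several secreted and matrix genes rose. Tnxb, which encodes the matrix glycoprotein tenascin-X, went from 10.7 and 11.6 CPM at E16.5 to 67.7 and 58.2 CPM at P0 (5.29-fold, adjusted p = 2.5e-07). Has1, a hyaluronan synthase, rose 5.02-fold from 19.8 and 20.5 to 91.4 and 121.7 CPM (adjusted p = 1.4e-05). Angptl4, an inhibitor of lipoprotein lipase, rose 4.08-fold (27.8 and 25.5 to 123 and 107.15 CPM, adjusted p = 8.8e-08). Tnfaip2 rose 4.27-fold, together with the unannotated transcripts Gm12216 and Gm17056 (5.03- and 4.55-fold, largest adjusted p = 2.1e-06).

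Col2a1 had the largest fitted increase, but it rested on 1 library. The cartilage collagen was at 0 and 0.09 CPM at E16.5 and at 247 and 2.13 CPM at P0, that is 1911 UMIs in replicate 1 and 22 in replicate 2, and at 0 in both W4 libraries. No fold is given for it.

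The complement list had 7 of 11 tested members higher and 0 lower (median log2 difference 0.64). C3, the central complement protein, went from 2.88 and 4.73 CPM at E16.5 to 27.4 and 44.9 CPM at P0 (8.98-fold, adjusted p = 4.1e-06), Serping1, which inhibits C1, from 265 and 255 to 316 and 328 CPM (1.17-fold, adjusted p = 0.04, and 0.0903 to 0.293 without either E16.5 library or without P0 replicate 2). Of 14 antigen presentation genes 9 were higher and 0 lower (median 0.63), with H2-K1 at 9.72 and 9.73 against 35.0 and 28.3 CPM and H2-D1 at 27.9 and 32.3 against 111.5 and 92.5 CPM. Both are class I heavy chains, and B2m, their light chain, rose 1.58-fold. Beside this, thymocyte markers summed to 43.75 to 50.36 CPM at E16.5 and 58.6 and 109 CPM at P0 (3 of 14 higher). More of them were called higher without P0 replicate 2 and fewer without P0 replicate 1. Leukocyte markers summed to 7.09 to 7.44 and then 13.28 to 22.6 CPM (2 of 4 higher). The part of both marker sets was not tested. Interferon-stimulated genes did not move together, with 4 higher and 2 lower of 20 (median 0.05).

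Fabp5 and Fabp4, carriers of fatty acids, were among the genes that fell, while the list of adipogenic and lipid genes that holds them had 7 higher and 2 lower of 13 (median 0.51). Fabp5 was at 403 and 398 CPM at E16.5 and 90.8 and 80.5 CPM at P0 (4.95-fold lower, adjusted p = 1.5e-08), Fabp4 at 126.7 and 145.9 and then 48.2 and 63.1 CPM (2.57-fold lower, adjusted p = 5e-05). Fabp4 is abundant in capillary endothelium, at 11727 to 15056 CPM in EnC at these ages. In the same CapFb1b libraries endothelial markers summed to 92.44 and 93.45 CPM at E16.5 and to 55.18 and 56.43 CPM at P0 (4 of 9 lower, 1 higher), and the share of EnC among the cells fell by 1.32 on the log2 scale. Their part in the fall of Fabp4 was not tested. G0s2, an inhibitor of lipolysis, was 2.48-fold lower (291 and 286 to 130 and 117 CPM) and Oxct1, which uses ketone bodies, 2.29-fold lower. Igfbp2, a binding protein for insulin-like growth factors, fell from 87.9 and 108.3 to 16.9 and 25.9 CPM (4.77-fold, adjusted p = 3.7e-06). Gpr83, the adenosine receptor gene Adora2b, the fibril-associated collagen Col12a1 and Stmn1, a microtubule regulator of dividing cells, were 3.45-, 3.35-, 2.48- and 2.28-fold lower.

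Imprinted and fetal growth genes were lower at P0 in 10 of 13 cases and higher in 1 (median -0.56). Cdkn1c, an imprinted inhibitor of the cell cycle, went from 3660 and 3816 to 1499 and 1405 CPM (2.73-fold lower, adjusted p = 3.8e-07), Dlk1 from 5943 and 5704 to 3880 and 4070 CPM (1.55-fold lower, adjusted p = 5.3e-05). Igf2 was the 1 that rose, from 60.2 and 64.6 to 82.7 and 75.6 CPM (1.20-fold, adjusted p = 0.028, and 0.122 or 0.305 without an E16.5 library). Values for H19 (2416 and 2440, then 2318 and 2405 CPM) differed by -0.12 ± 0.24 on the log2 scale (adjusted p = 0.74). Of 19 cell cycle genes 10 were lower and 0 higher (median -0.64), among them Cdk1 (43.8 and 38.5 to 28.4 and 27.4 CPM, adjusted p = 0.00066).

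Signalling genes moved in both directions. Crabp1, which binds retinoic acid, and Aldh1a2, which makes it, fell 5.21- and 2.97-fold, while Dhrs3, which returns retinaldehyde to retinol, rose 3.24-fold from 3.17 and 4.73 to 17.6 and 10.5 CPM. Of 17 growth factors for epithelium 5 were higher and 2 lower. Igf1 rose from 89.3 and 81.4 to 228 and 147 CPM (2.07-fold, adjusted p = 0.00034), and Hgf and Fgf7 were the 2 that fell (-0.87 and -0.48 on the log2 scale, neither called without E16.5 replicate 2, with Hgf at adjusted p = 0.0575, and Fgf7 not without P0 replicate 2 either, at most 0.271). Fst, which binds activins, rose 6.98-fold, and Gli1, a target of Hedgehog signalling, was 1.955 higher on the log2 scale. Fgf10 differed by 0.11 ± 0.08 (98.02 and 92.99 to 119.3 and 99.5 CPM, adjusted p = 0.34).

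From P0 to W4, imprinted growth genes fell in CapFb1b, most of them steeply, and complement and MHC transcripts rose. In this contrast 46.5% of 12631 genes were called, 23.8% higher and 22.7% lower at W4. The 2 W4 libraries held 150 and 218 CapFb1b cells.

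All 13 tested genes of the imprinted list were lower at W4 (median log2 difference -4.86). Dlk1, a membrane protein of fetal mesenchyme and preadipocytes, read 918, 2040, 5943, 5704, 3880, 4070, 35.0 and 39.1 CPM over the 8 libraries (107.6-fold lower at W4 than at P0, adjusted p = 2.1e-13). H19, the noncoding RNA beside Igf2, read 1644, 1680, 2416, 2440, 2318, 2405, 38.3 and 109 CPM (31.3-fold lower, adjusted p = 5.7e-08, and 63.5-fold without W4 replicate 2). The transcription factor gene Plagl1, Mest and Peg10 were 37.8-, 29.0- and 29.1-fold lower, and the brain-enriched transcript 6330403K07Rik 23.3-fold. Igf2 had 1420 UMIs at P0 and 2 at W4, a ratio of 199 with an exact 95% counting interval of 54.9 to 1640. Magel2 was at 0 in both W4 libraries, at least 16.1-fold lower than at P0 when 3 UMIs are allowed per library. Least reduced were Cdkn1c (2.98-fold) and Gnas (1.66-fold). The oncofetal RNA-binding gene Igf2bp1 was also at 0 at W4, at least 12.1-fold lower.

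A pair of genes outside these lists was also lower at W4, but low at E12.5 and E13.5 too. Agtr2, the angiotensin receptor AT2 of fetal mesenchyme, was at 3.46, 23.9, 385, 380, 354, 348, 2.84 and 2.38 CPM, and so highest at E16.5 and P0 (136.5-fold lower at W4 than at P0, adjusted p = 4.2e-12). Kera, the proteoglycan keratocan, was at 1.73, 2.08, 102, 106.8, 99.1, 86.4, 0.95 and 0.34 CPM, with 3 UMIs in all at W4 (ratio 154.8, exact 95% counting interval 52.9 to 751).

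Complement genes rose in 11 of 11 tested cases (median 2.57). C3 went from 27.4 and 44.9 CPM at P0 to 1974 and 2188 CPM at W4 (56.4-fold, adjusted p = 4.9e-10), and Serping1 from 316 and 328 to 1846 and 1954 CPM (5.85-fold). All 14 antigen presentation genes were higher (median 2.29), with H2-K1 at 35.0 and 28.3 and then 638 and 553 CPM (18.7-fold, adjusted p = 1.9e-11). Cd74, of class II presentation, was 2.68 higher on the log2 scale. In the same libraries thymocyte markers summed to 58.6 and 109 CPM at P0 and 140 and 232 CPM at W4, with 6 of 14 higher. More of them were called without P0 replicate 1 and fewer without W4 replicate 1. Epithelial markers summed to 5.72 to 14.99 and 25.5 to 43.5 CPM, with 4 of 5 higher. The part of both marker sets in the rise of presentation genes was not tested. All 4 tested erythroid markers were higher as well (median 4.25), as they were in sorted bulk fibroblasts (4 of 4, median 12.49). In CapFb1b their rise was carried by W4 replicate 2. Erythroid markers summed to 100.3 and 354.1 CPM at P0 and to 234.6 and 8963 CPM at W4.

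**Figure D3:**
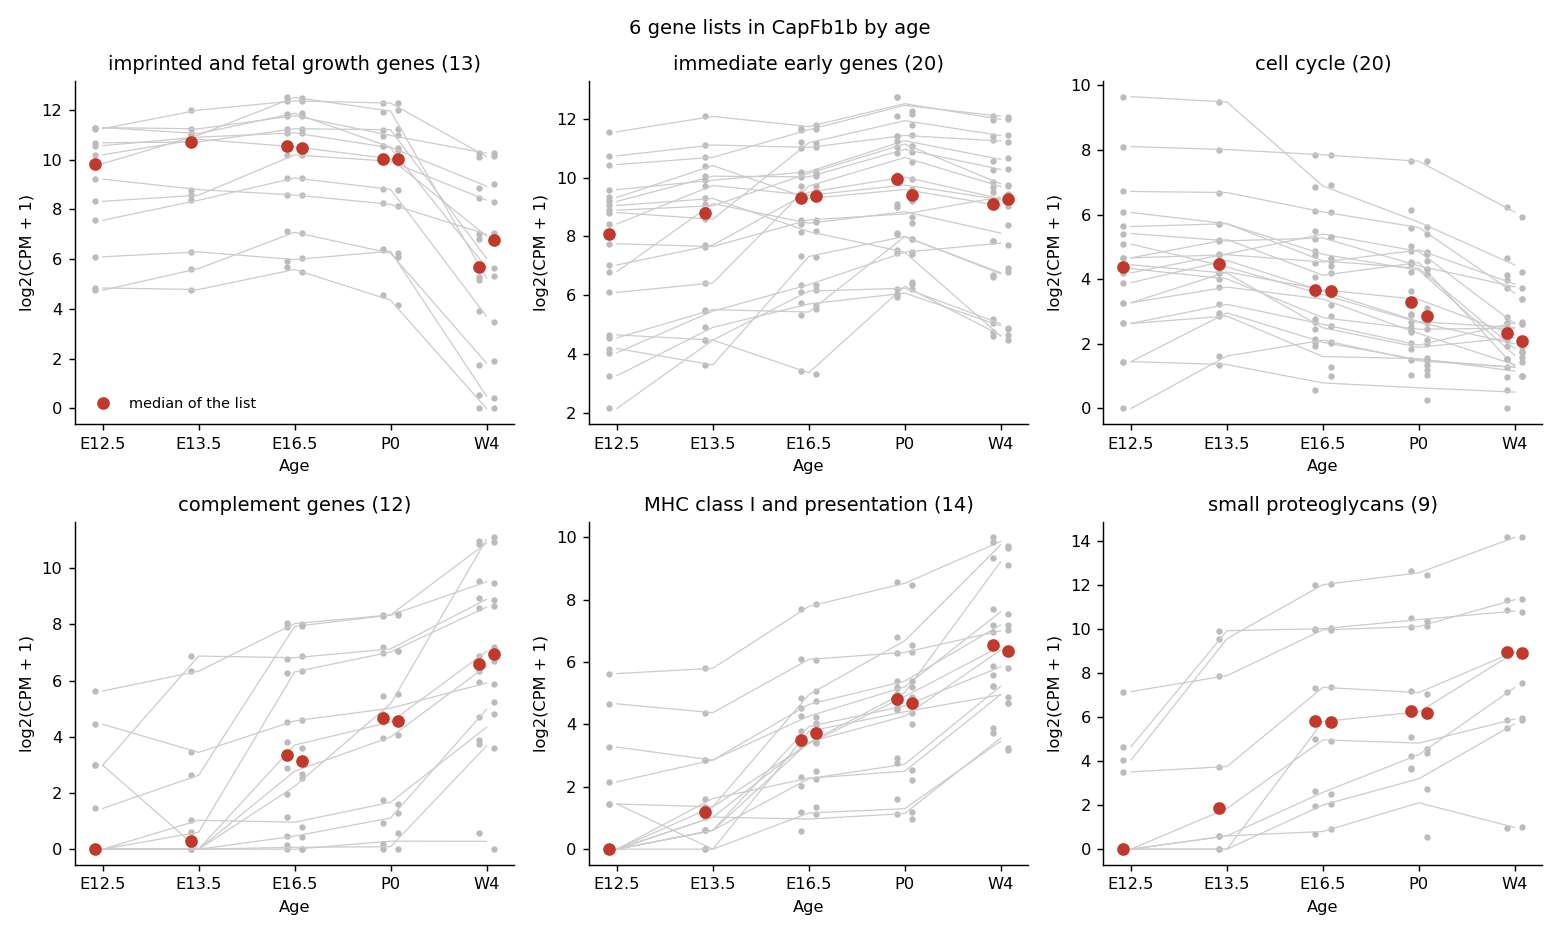
Each panel shows 1 gene list in CapFb1b, with log2(CPM + 1) of every member per library (grey points), its mean at each age (grey lines) and the median of the list per library (red). Imprinted genes drop between P0 and W4 in both W4 libraries, while the medians of complement, antigen presentation and small proteoglycan genes are highest there.

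Matrix genes moved in both directions at W4. All 8 tested members of the small proteoglycan list rose (median 1.73), whereas keratocan, of the same family but not on the list, fell as given above. Of the list, Dcn, which binds collagen fibrils, rose from 6428 and 5609 to 18365 and 18349 CPM (3.02-fold, adjusted p = 3.7e-09), Podn 8.69-fold and Lum by 0.37 on the log2 scale. Of 16 fibrillar and network collagens 6 were higher and 3 lower (median 0.16), and of 16 collagen processing genes 10 were higher and 1 lower. Fibrillar Col1a1 and Col3a1 rose 1.42- and 1.48-fold, and Lox, which crosslinks them, 5.50-fold from 49.4 and 45.9 to 252 and 274 CPM. Cpxm2, a carboxypeptidase-like protein without known enzyme activity, had 13 and 2 UMIs at P0 and 1372 and 1677 at W4, that is 1.68, 0.19, 649 and 570 CPM. Pcolce2, an enhancer of procollagen processing, rose from 5.43 and 0.10 to 136.2 and 143.1 CPM, where the P0 libraries differ so that the fold of 56.9 was 1192 and 25.6 without one or the other, and Cilp rose 81.97-fold to 40.2 and 70.03 CPM. Mfap2 of elastic microfibrils was 2.70-fold lower and Nid2 of the basement membrane 1.74-fold lower.

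Of 16 genes of cysteine and glutathione metabolism 11 were higher and 3 lower at W4 (median 1.22). Inmt, outside this list, an amine methyltransferase, was at 0 to 3.12 CPM in all libraries up to P0 and at 550 and 564 CPM at W4 (210-fold over P0, adjusted p = 2.1e-13). Gsta3, a glutathione transferase also outside the list, went from 0.65 and 0.39 to 55.3 and 56.8 CPM (107.7-fold), Gstm1 from 64.7 and 69.1 to 447 and 444 CPM (6.57-fold), and Gpx3, the secreted glutathione peroxidase, from 8.92 and 10.8 to 149.5 and 222 CPM (18.7-fold). Of the 3 that were lower, Cdo1 went from 400 and 401 to 25.5 and 23.1 CPM (16.7-fold lower, adjusted p = 1.3e-11). Ifi205, an interferon-inducible nuclear protein, had 0 and 3 UMIs at P0 and 141 and 126 at W4 (ratio 318, exact 95% counting interval 107.6 to 1551).

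Among secreted factors, Cxcl14 went from 2.84 and 2.42 CPM at P0 to 325 and 266 CPM at W4 (111-fold, adjusted p = 5.1e-12). Gas6, the ligand of TAM receptors that recognise apoptotic cells, went from 5.30 and 1.65 to 254 and 294 CPM (83.8-fold, adjusted p = 4.6e-10, and 161.5- or 51.6-fold without P0 replicate 1 or 2). Ackr3, a scavenger receptor for CXCL12, went from 2.07 and 0.49 to 63.9 and 79.9 CPM (60.5-fold, and 141.5- or 34.8-fold without P0 replicate 1 or 2), and its ligand gene Cxcl12 from 37.5 and 33.6 to 99.3 and 91.8 CPM (2.66-fold). Cxcl10 fell from 288 and 197 to 56.3 and 61.5 CPM (4.11-fold lower, adjusted p = 7.5e-07). Bmp4 rose 4.25-fold (61.5 and 49.9 to 222 and 251 CPM), Igf1 1.87-fold and Fgf7 2.46-fold, while Mdk (midkine) and Ptn fell 3.16- and 2.08-fold. Flt3l, a cytokine of lymphoid progenitors, was 2.63 higher on the log2 scale.

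Of 8 secreted Wnt modulators 7 were higher and 1 lower. Sfrp1 read 286, 391.9, 119.2, 123, 174.96, 155.2, 650.4 and 815.5 CPM, high at both ends of the series and lowest at E16.5 (4.42-fold from P0 to W4, adjusted p = 1.6e-08). Sfrp2 had a like course with 798, 238, 10.6, 10.9, 17.7, 8.34, 74.3 and 92.8 CPM. Rspo3, which amplifies Wnt signals, was the 1 that fell (1.31-fold, adjusted p = 0.0562 or 0.0692 without a W4 library). The Wnt ligand gene Wnt2 was at 0.39 and 0.29 CPM at P0 and at 25.5 and 35.4 CPM at W4.

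The other label genes diverged. Dpep1 rose 12.2-fold from 65.9 and 109 to 1062 and 1106 CPM (adjusted p = 9.4e-09), Svep1, a large adhesion protein of the matrix, 6.87-fold from 56.7 and 61.1 to 395 and 422 CPM, and Fgf10 1.67-fold to 187.3 and 180 CPM (adjusted p = 2.2e-05). Itm2a fell 5.19-fold (adjusted p = 2.8e-10). Thus 4 of 7 label genes rose and 3 fell. Pdgfra was 1.09 higher on the log2 scale at W4, and Fgfr2, a receptor for fibroblast growth factors, 3.35 lower.

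Immediate early genes were lower at W4 in 18 of 20 cases and higher in 2, Klf6 and Dusp1 (median -0.71). Without W4 replicate 1 neither Klf6 nor Dusp1 passed (adjusted p = 0.0633 and at most 0.137), nor did Dusp1 without P0 replicate 2. Fos, among those called lower, lost the call in 3 of 6 fits without 1 library (adjusted p = 0.0685 to 0.109), and 14 of 20 were lower without W4 replicate 1. Egr2 fell from 174 and 177 to 26.02 and 21.4 CPM (7.55-fold, adjusted p = 2.9e-10). Of 19 cell cycle genes 12 were lower and 0 higher, with Cdk1 at 28.4 and 27.4 and then 5.20 and 5.10 CPM, and Mcm2, part of the replicative helicase, 8.47-fold lower. All 16 ribosomal protein genes were lower (median -0.77). Among 30 developmental transcription factors 10 rose, with Meox1 2.12 higher on the log2 scale, and 8 fell, with Sox9 1.85 lower. Fewer of these factors were called higher without W4 replicate 2. Of the interferon-regulated genes, Irf1 fell 6.21-fold and Iigp1 4.24-fold, and the list as a whole had 6 higher and 4 lower of 20.

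Sorted gp38+CD26- fibroblasts were compared at the same ages, with 6 samples each and 24.3% of 12279 genes called (12.9% higher and 11.5% lower at W4). Dlk1 ranged from 1878 to 2538 CPM at P0 (median 2237) and from 0 to 10.3 CPM at 4 weeks (median 3.85). H19 had 2232 to 2664 CPM (median 2448) at P0 and 0.26 to 36.5 CPM (median 3.25) at 4 weeks, so the groups did not overlap for either gene (adjusted p = 4.97e-07 for Dlk1 and 1.94e-05 for H19). All 13 imprinted genes were lower. C3 ranged from 51.7 to 327 CPM (median 72.9) and then from 1782 to 3481 CPM (median 2627, adjusted p = 7.3e-06), and 10 of 11 complement and 11 of 14 presentation genes were higher. Gas6 rose 16.8-fold and Dcn 2.74-fold. In the same direction as in CapFb1b, 12 of 20 cell cycle and 9 of 20 immediate early genes were lower in the bulk fibroblasts (0 and 2 higher), and 5 of 9 small proteoglycans were higher and 0 lower.

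Other lists moved differently. In the bulk fibroblasts 0 of 9 secreted Wnt modulators were higher and 2 lower, 2 of 16 collagens were higher and 8 lower, and 4 of 16 ribosomal protein genes were higher and 2 lower. Of the 7 label genes 0 rose and 4 fell. Fgf10, which was higher at W4 in CapFb1b, was 1 of those that fell (77.5 to 193.7 CPM at P0 and 35.4 to 75.2 CPM at 4 weeks, log2 difference -0.92 ± 0.27, adjusted p = 0.0213, and 0.0505 to 0.0766 in the 5 of 12 fits without 1 sample that lost the call). Sfrp1 had 282 to 345 CPM (median 293) at P0 and 47.4 to 260 CPM (median 145) at 4 weeks (log2 difference -1.01 ± 0.32, adjusted p = 0.033, and 0.0549 to 0.0746 in the 9 of 12 fits without 1 sample that lost the call), where CapFb1b had risen. Dpep1 had 198 to 442 CPM (median 303) and 166 to 463 CPM (median 232), overlapping, with a difference of -0.03 ± 0.29 (adjusted p = 0.95). Itm2a and Cdo1 fell 14.6- and 45.3-fold, in the direction seen in CapFb1b. The study found mostly medullary fibroblasts in this gate, with CapFb1 cells beside them, and every capsular subtype in gp38+CD26+. The gp38+CD26+ gate was not compared between ages here. Mural cells were sorted separately as gp38- cells, and in bulk RNA fewer cells of a type and less RNA per cell cannot be told apart.

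At P0 the 2 sorted populations differed in the label genes. Of 7, 4 were lower in gp38+CD26- than in gp38+CD26+ fibroblasts and 0 higher, where 3.35% of 11967 genes were called in all (1.55% higher and 1.8% lower in gp38+CD26-). Itm2a had 15698 to 19533 CPM in CD26+ and 4747 to 7522 CPM in CD26- samples (medians 18329 and 6521, 3.06-fold lower, adjusted p = 1.2e-05). Dpep1, Fgf10 and Svep1 were 2.12-, 2.04- and 2.40-fold lower, Fgf10 losing the call in 8 of 12 fits without 1 sample (adjusted p up to 0.0842). Cdo1 and Ptn differed by -0.56 ± 0.16 and -0.09 ± 0.13 (adjusted p = 0.078 and 0.85). Dpp4 itself, which defines the gate, had 129 to 464 and 0 to 25.9 CPM. Mural markers were higher in CD26- samples in 6 of 8 cases, and 5 of 6 capsule genes lower, among them Mfap5 13.7-fold and Dpt 6.99-fold.

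Whether the course from P0 to W4 differed between CapFb1b and its neighbours was tested as an interaction of age and label with each library as a block. The labels were assigned from the same counts, so the tests between labels are not independent of how the cells were assigned. Against CapFb1c 4.47% of 11912 genes differed, 3.09% upward in CapFb1b (a larger rise or a smaller fall) and 1.38% downward (the reverse). Against CapFb1a 3.6% of 11656 genes differed (1.9 and 1.7%).

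Dpt, the matrix protein dermatopontin, was at 14.7 and 9.89 CPM at P0 and 638 and 697 CPM at W4 in CapFb1b, at 170 and 61.1 and then 948 and 1034 CPM in CapFb1a, and at 241 and 169 and then 978 and 1038 CPM in CapFb1c. The rise was larger in CapFb1b by 3.46 ± 0.10 (log2) than in CapFb1c and by 2.48 ± 0.16 than in CapFb1a (adjusted p = 1.3e-14 and 1.1e-10). In newborn CapFb1b of the second data set Dpt was at 4.98 to 14.4 CPM, against 23.8 to 102 CPM in CapFb1a and 67.2 to 162 CPM in CapFb1c. The study transferred cell labels between its data sets by expression, so these newborn levels are a description and no separate check. Ly6a, the surface antigen Sca-1, was at 31.4 and 24.0 CPM at P0 in CapFb1b and at 229 to 346 CPM in the other labels, and at 828 and 947 against 1238 to 1371 CPM at W4 (2.84 ± 0.12 and 2.47 ± 0.13 larger).

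Ackr3, at 2.07 and 0.49 CPM in CapFb1b and 3.46 to 19.8 CPM in both neighbours at P0, was at 63.9 and 79.9 against 66.1 to 91.5 CPM at W4, so that the labels overlapped there. Its rise was 3.396 ± 0.32 and 2.61 ± 0.37 larger (adjusted p = 4.2e-07 and 4.4e-05). Cxcl14 at W4 was above both, with 325 and 266 CPM against 150 and 117 in CapFb1a and 69.5 and 43.1 in CapFb1c (2.79 ± 0.42 and 1.83 ± 0.42 larger). Against CapFb1c, Ltc4s of leukotriene synthesis and C3 rose more by 2.95 ± 0.50 and 2.01 ± 0.07, as did Ifi205, which has 3 UMIs at P0. Against CapFb1a, Gas6 and Cilp rose more by 3.01 ± 0.26 and 2.33 ± 0.47, where CapFb1a had 46.5 and 5.38 CPM of Gas6 at P0. Without P0 replicate 1 the calls of Ackr3, Cilp and Cxcl14 against CapFb1a (adjusted p = 0.0643, 0.191 and 0.318) and of Cxcl14 against CapFb1c (0.0687) were lost, and without W4 replicate 2 that of Cilp (0.0819).

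**Figure D4:**
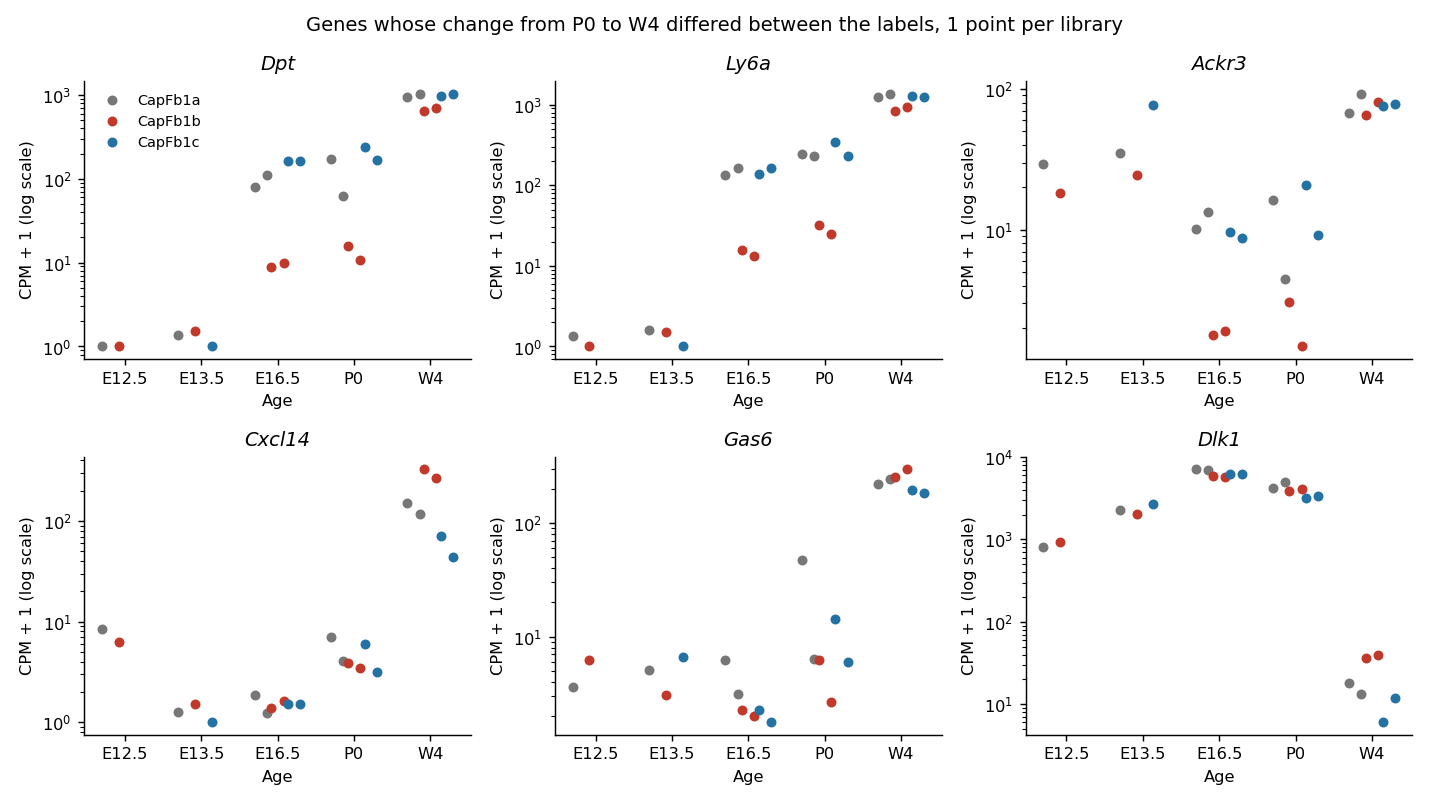
Levels (CPM + 1, log axis) of 6 genes in CapFb1a (grey), CapFb1b (red) and CapFb1c (blue) by age, 1 point per library. Dpt and Ly6a start lowest in CapFb1b at E16.5 and P0 and come near the neighbours at W4, whereas Cxcl14 and Dlk1 stand highest in CapFb1b at W4.

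Of the label genes, Dpep1, Fgf10 and Ptn differed upward in CapFb1b against both neighbours. Since the labels were assigned from these same counts, the interactions of these genes are a description. The call of Fgf10 against CapFb1c was lost in most fits without 1 library. Dpep1 at W4 (1062 and 1106 CPM) was above CapFb1a (875 and 872) and CapFb1c (858 and 830), having been below both at E16.5. The interaction of Dpep1 was 1.503 ± 0.10 against CapFb1c and 0.89 ± 0.11 against CapFb1a. Ptn fell less, to 3941 and 3719 CPM against 1600 to 2026 CPM in the others (0.74 ± 0.03 and 0.70 ± 0.08). Dlk1 and Cdkn1c fell less as well, Dlk1 to 35.0 and 39.1 CPM against 17.3 and 12.4 in CapFb1a and 5.05 and 10.8 in CapFb1c (1.90 ± 0.12 and 1.499 ± 0.10).

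Other genes differed downward in CapFb1b. Against CapFb1a the calls were 222 upward and 198 downward, an order that turned with DESeq2 size factors (213 and 219). Against CapFb1c these were Kcnj8, a potassium channel subunit of pericytes (86.1 and 107.05 CPM at P0 and 19.9 and 23.1 at W4, interaction -1.66 ± 0.18), H19 (-1.62 ± 0.27), Isg15 (-1.23 ± 0.28), Fam20c, a kinase of secreted proteins (-1.18 ± 0.21), and Cxcl2. Against CapFb1a they were F830016B08Rik (-2.72 ± 0.42), Fgl2, a secreted fibrinogen-like protein (-2.04 ± 0.23), Egr3 (-1.81 ± 0.30), Iigp1 (-1.69 ± 0.30) and Cxcl2. The value of Cxcl2 against CapFb1c depends on 1 library, since CapFb1c had 4.42 and 97.0 CPM at W4 (interaction -2.95 ± 0.61, and 1.24 without W4 replicate 2). The same library decided the value against CapFb1a (-6.05 ± 0.58, and -0.59 with adjusted p = 0.958 without it). W4 replicate 2 also decided the calls of F830016B08Rik, Egr3, Fam20c and Isg15 (adjusted p without it up to 0.494), and Isg15 and Iigp1 were lost without P0 replicate 1 and W4 replicate 1 respectively. Of 16 ribosomal protein genes 16 and 12 fell more in CapFb1b, by medians of only -0.28 and -0.23.

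In newborn mice, CapFb1b made up 16.8, 15.8 and 11.8% of the nonepithelial cells of libraries from mice labelled Tbx1+/- Crkl+/-, while WT littermates had 14.5, 11.7 and 12.8%. The groups overlapped, with a log2 difference of 0.18 ± 0.17 and a 95% interval by the normal approximation of -0.15 to 0.51 (adjusted p = 0.621 over 19 labels).

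The targeted genes were read in every library. Crkl, an adaptor protein of receptor tyrosine kinases, was at 34.9, 34.5 and 20.8 CPM in CapFb1b of the libraries labelled Tbx1+/- Crkl+/- and at 15.4, 20.3 and 20.5 CPM in WT (log2 difference 0.63 ± 0.33, adjusted p = 0.767). All 3 former libraries thus lay above all 3 WT libraries, without passing the test. Over all cells of a library the groups overlapped, at 24.1, 23.6 and 26.9 against 22.99, 25.1 and 18.4 CPM. Tbx1 had 0, 0 and 8 UMIs in all cells of the former and 13, 6 and 19 in those of WT, and 0 or 1 UMI per library in CapFb1b. Crkl was thus not lower in the libraries labelled heterozygous, and since reads come from the 3′ end and the deleted part is not given in the sources used here, this does not check the labels.

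Between genotypes 4 of 8534 genes in CapFb1b passed the test, 0.0469%, with 3 higher (0.0352%) and 1 lower (0.0117%) in the libraries labelled Tbx1+/- Crkl+/- (559 had an unadjusted p under 0.05). Zbtb16, a zinc finger repressor induced by glucocorticoids, was at 69.7, 68.996 and 52.9 CPM against 14.0, 10.1 and 15.2 CPM in WT (4.58-fold, adjusted p = 0.00063). It was not particular to this label, at 45.8, 62.8 and 73.2 against 24.5, 2.64 and 19.8 CPM in CapFb1a, and at 51.4, 37.5 and 34.3 against 12.4, 4.34 and 12.6 CPM over all cells. Of 13 glucocorticoid-responsive genes tested, Zbtb16 was the 1 that passed, and Fkbp5 stood at 149.4, 163.4 and 170 against 102, 72.2 and 100.7 CPM (adjusted p = 0.353).

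Gm26870, a predicted noncoding RNA, was at 72.2, 15.6 and 130 against 1.40, 10.1 and 5.22 CPM (11.6-fold, adjusted p = 0.00404, and 6.28-fold with adjusted p = 0.074 without Het replicate 3), and overlapped between the genotypes in CapFb1a (28.6, 19.5 and 3.48 against 0, 26.4 and 3.13 CPM). Prss16, a serine protease of cortical thymic epithelium, was at 129, 199 and 192.4 against 61.4, 78.9 and 75.0 CPM (2.40-fold, adjusted p = 0.048, and up to 0.22 in the 4 of 6 fits without 1 library that lost the call). Beside it, the other 9 epithelial markers in CapFb1b summed to 557.7, 1152 and 859.4 CPM in the libraries labelled Tbx1+/- Crkl+/- and to 452.1, 586.3 and 402.0 CPM in WT, so that the groups overlapped. Prss16 in EnC was also higher, with 252.5 to 374 against 191.7 to 247.5 CPM. Slc46a2, like Prss16, was higher over all cells of each library than in CapFb1b. In CapFb1b it did not overlap between the genotypes, at 74.7, 114.99 and 68.9 against 34.9, 39.5 and 30.5 CPM. Perinatal cortical epithelial cells made up 33.5, 25.9 and 24.7% of the libraries labelled Tbx1+/- Crkl+/- and 16.9, 22.4 and 17.2% of WT. Shares of mature cortical epithelial cells overlapped, at 6.22, 7.15 and 6.33 against 4.13, 8.73 and 10.3%. The part of RNA from epithelial cells in the difference of Prss16 was not tested.

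Ngfr, the low-affinity nerve growth factor receptor, was the 1 gene that was lower, at 2.49, 2.46 and 4.81 against 25.1, 24.8 and 17.3 CPM (log2 difference -2.75 ± 0.51, adjusted p = 0.0293). These values rest on 1, 3 and 3 UMIs against 18, 22 and 43. The call was lost without any 1 Het library or WT replicate 2 (adjusted p = 0.0506 to 0.197). It is named because only 4 genes were called, after its values were seen. With DESeq2 3 genes passed, among them Zbtb16 and Prss16, while Gm26870 and Ngfr did not (adjusted p = 0.55 and 0.333). Of the 7 label genes 0 passed in edgeR and 0 in DESeq2, and 3, Cdo1, Ptn and Svep1, had an unadjusted p under 0.05 in edgeR. The differences of the 7 ran from -0.73 to 0.56, with Itm2a at 954, 1083 and 704 against 900, 1077 and 1844 CPM (adjusted p = 0.781).

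**Figure D5:**
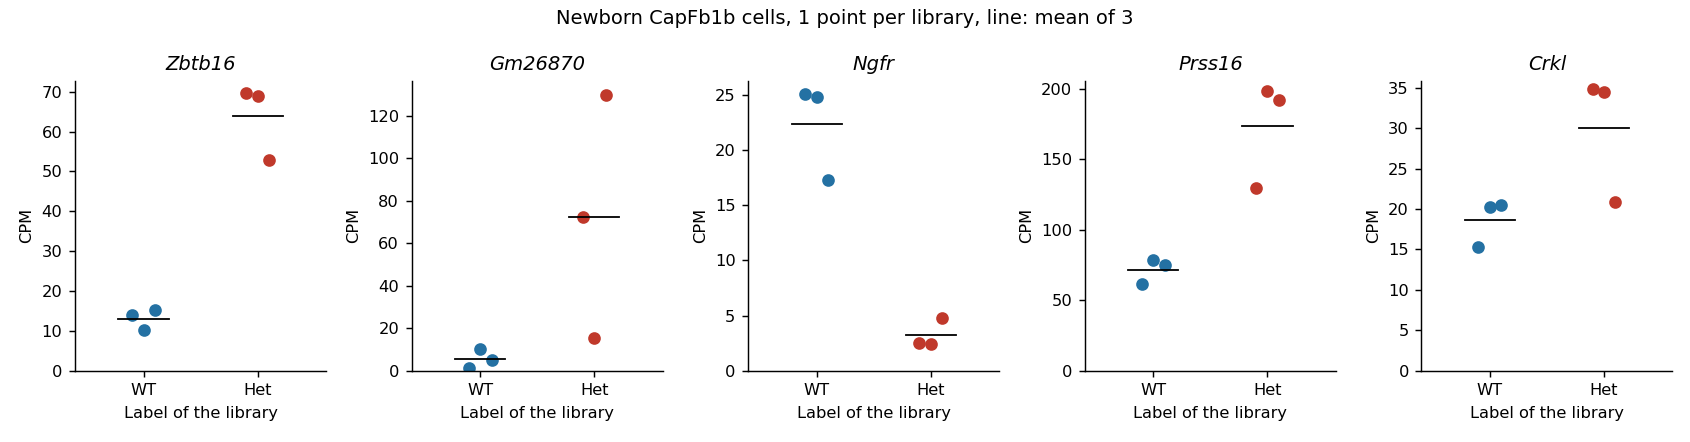
Levels (CPM) in newborn CapFb1b cells of the 4 genes that passed the genotype test and of Crkl, with 1 point per library and a line at the mean of 3. Zbtb16, Gm26870 and Prss16 lie higher and Ngfr lower in the libraries labelled Het (Tbx1+/- Crkl+/-) without overlap, and Crkl lies higher there as well but did not pass the test.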

How the data were processed

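UMI counts per gene and cell, with cell labels, were used as deposited by the authors, who per the submitters' processing notes used Cell Ranger 3.1.0 with mm10, and per their methods kept cells by genes and mitochondrial share, singlets from DoubletFinder and no contaminant clusters. The bulk read counts deposited by the authors came from STAR 2.5.3a and HTSeq, and 9.25 to 16.6% of reads lay in rows that name no gene and were left out, leaving 8454267 to 15560221 counts per sample. Of 39179 bulk identifiers 37607 had a symbol.

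UMIs of CapFb1b cells were summed per library where at least 20 cells were present, and tested in R 4.3.3 with edgeR 4.0.16 (filterByExpr, TMM, quasi-likelihood test, Benjamini-Hochberg adjustment over all genes tested, threshold 0.05). Interactions used libraries as blocks. DESeq2 1.42.0, other normalization, filters, cell numbers and left-out libraries were alternatives. On simulated counts for the W4 against P0 contrast, 62 of 100 genes changed 2-fold and 84 of 100 changed 4-fold were called over 12418 genes. There 16 of 12220 unchanged genes were called too, and 1 gene changed 2-fold had the wrong sign. For the genotype contrast 36 and 91 of 100 were called over 8334 genes, and 2 of 8146 unchanged genes. Few genes were changed in the simulation, whereas 46.5% were called from P0 to W4 in the data, so this recovery need not carry over. The genes named were, among called genes of at least 50 CPM in the higher group whose groups did not overlap, the 10 with the largest change in each direction for age and genotype and 5 for interactions, the 15 with the largest smallest ratio of CapFb1b to both neighbours, and members of the gene lists, a few of which are not reported here. Members, lists and tests were chosen with earlier results of these data known. Label levels were compared as log2(CPM + 10). Wilson and exact intervals and floors of 3 counts cover counting error only. Intervals of log2 share differences are a normal multiple of the SE.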

Additional observations from a re-analysis of the deposited data

Results flagged for a closer look

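Among the bulk samples, 10 of 55 groups of 6 held a sample far from the others, where chance gives about 1 in 20. All 10 were the highest of their group. In gp38+CD26- at P0 these were Sfrp1 in replicate 3 (345 CPM), Cdo1 in replicate 2 (421 CPM), Dpp4 in replicate 4 (25.9 CPM), Mest in replicate 5 (4500 CPM), and Pi16 and C3 in replicate 6 (18.1 and 327 CPM). In gp38+CD26- at 4 weeks they were Itm2a and H19 in replicate 6 (607 and 36.5 CPM) and Ptn in replicate 1 (2180 CPM). In gp38+CD26+ at P0 Pi16 stood apart in replicate 1 (548 CPM).

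The change from P0 to W4 differed between CapFb1b and CapFb1c by the interaction in edgeR's quasi-likelihood test. An upward difference is a larger rise or a smaller fall in CapFb1b, and Dlk1, Cdkn1c, Ptn and Cxcl10 fell there. The difference was upward for Ifi205 (5.77 on the log2 scale), Dpt (3.46), Ackr3 (3.4), Ltc4s (2.95), Ly6a (2.84), Cxcl14 (2.79), Cxcl10 (2.41), C3 (2.01), Dlk1 (1.9), Cxcl12 (1.77), Dpep1 (1.5), Lpl (1.08), Cdkn1c (0.993), Ptn (0.737) and Fgf10 (0.466). The difference was downward for Cxcl2 (-2.95), Kcnj8 (-1.66), H19 (-1.62), Isg15 (-1.23), Fam20c (-1.18) and Itm2a (-0.162).

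Against CapFb1a it was upward for Gas6 (3.01), Ackr3 (2.61), Dpt (2.48), Ly6a (2.47), Cilp (2.33), Fst (2.29), Cxcl14 (1.83), Dlk1 (1.5), Cxcl12 (1.43), Cdo1 (0.913), Fgf10 (0.9), Dpep1 (0.893), Sfrp1 (0.849), Ptn (0.7), Bmp4 (0.681) and Cdkn1c (0.672). It was downward for Cxcl2 (-6.05), F830016B08Rik (-2.72), Fgl2 (-2.04), Egr3 (-1.81) and Iigp1 (-1.69). With 1 library left out, Cdo1 against CapFb1a and Itm2a against CapFb1c lost the call in 5 of 6 fits (adjusted p up to 0.31 and 0.355 in edgeR), Fgf10 against CapFb1c in 4 of 6 (up to 0.357), and Bmp4 against CapFb1a without W4 replicate 2 (0.124). The labels were assigned from these same counts, so these tests are not independent of them.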

How the results depend on the processing

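Of 3003 values of single genes under alternatives, 2840 kept their direction and side of the threshold, 15 gained the call, 28 changed sign, and nearly all others lost the call. Counts of called genes ran as follows, and the cause of moves over 1.5 times was not tested. Between E16.5 and P0, 3576 genes became 1679 with DESeq2, 1485 with equal cell numbers and 1332 to 4159 with 1 library left out (fewest without an E16.5 library). From P0 to W4, 5871 became 4241 to 5978 with 1 library left out. The interaction against CapFb1c gave 266 with DESeq2, 189 without the library term and 389 to 487 with 1 library left out, that against CapFb1a 118, 73 and 209 to 430 (209 without W4 replicate 2). Between genotypes, 4 became 40 without a filter and 4 to 23 with 1 library left out (23 without WT replicate 1). The bulk gate contrast gave 1173 with DESeq2 and 296 to 484 with 1 sample left out, bulk age 2620 to 2969. With the title prefix as a term, 178 genes were higher and 203 lower in gp38+CD26- than in gp38+CD26+ at P0. For bulk age that fit had 1593 higher and 1391 lower at 4 weeks.

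The share difference between E16.5 and P0 turned to -0.052 among fibroblasts only. With 1 library left out it was 0.077 to 0.173, that of W4 against P0 -1.24 to -1.05 and that of genotype 0.092 to 0.325. Signs turned in uncalled values near 0. Itm2a against CapFb1a was -0.013 with DESeq2 size factors, -0.018 without a filter, -0.011 with DESeq2 and -0.094 to 0.084 with 1 library left out. With 1 library left out Svep1 there was -0.078 to 0.196, Dpep1 at P0 against E16.5 -0.27 to 0.47 and Fgf10 -0.012 to 0.228, and Fgf10 was -0.055 with equal cell numbers. With 1 sample left out bulk Dpep1 with age was -0.27 to 0.165, bulk Ptn between gates -0.14 to 0.0043 and Fgf10 between genotypes -0.297 to 0.045. Called Cxcl2 against CapFb1c was -4.27 to 1.24, positive only without W4 replicate 2. With at least 5 cells per library the smallest ratio to both neighbours turned for Nes (-0.47), Ndufa4l2 (-0.10), Des (-0.52), Spry4 (-0.61), Ifitm1 (-0.16) and Tbx2 (-1.71).

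Replicate numbers did not pair the single-cell libraries: deviations of same-numbered libraries correlated by -0.04 to 0.02 between ages and by 0.15, 0.05 and -0.34 between genotypes. The bulk samples were not checked for pairing and were fitted as unpaired. With a replicate block 1674 genes were higher and 1666 lower at P0 than E16.5, 2895 higher and 2733 lower at W4 than P0, and 21 differed between genotypes (16 higher, 5 lower). Newborn cells had fewer UMIs, which limits small differences there.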
